A study of Homo sapiens with 6 samples.

Results

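UBB and RPS27A are genes whose proteins are cut into free ubiquitin, and they are described here in Caco-2 cells in which CBS had been targeted. The members were taken by gene symbol and are 2 of the 16781 genes in the deposited expression table. Messenger RNA was sequenced in 3 libraries of CBS KO cells and 3 of WT cells. Caco-2 is an established human line that was derived from an adenocarcinoma of the colon. Both groups were grown in the same high-glucose medium with serum. The CBS KO cells had received a lentivirus with Cas9, a puromycin resistance gene and 1 guide against CBS, an enzyme of the transsulfuration pathway that can release hydrogen sulfide. The puromycin-resistant cells were collected, with no step of single-cell cloning described, and the labels describe the WT cells only as WT. Knockout, infection and selection therefore differ between the groups together and cannot be told apart. Whether replicate libraries were grown as separate cultures is not stated, so each p-value rests on a spread between samples that may be technical.

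Ubiquitin is a small protein that cells attach to other proteins, most often to mark them for the proteasome. No gene codes for ubiquitin alone. Cells make it as a precursor, either as a head-to-tail chain of ubiquitin units (polyubiquitin) or as a unit joined to a protein of the ribosome, and deubiquitinases cut the units free. UBB is a polyubiquitin gene known to respond to heat and other proteotoxic stress in many cell types. RPS27A joins 1 ubiquitin to a protein of the small ribosomal subunit, so its mRNA serves both the ubiquitin pool and ribosome assembly.

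UBB (Entrez 7314) lies on chromosome 17 at 16380798 to 16382745 on the plus strand of GRCh38, in the GENCODE annotation. Its transcript UBB-201 has 2 exons, and the coding sequence lies within 1 of them, at 16381908 to 16382594. The product of 229 residues holds 3 copies of the 76-residue ubiquitin unit and 1 residue after the last copy. RPS27A (Entrez 6233) lies on chromosome 2 at 55231903 to 55235853, also on the plus strand. Its transcript RPS27A-201 has 6 exons, of which 5 are coding, and its product of 156 residues holds 1 ubiquitin unit and 80 further residues.

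All 4 units code for the same 76 residues, but by different codons. The first 60 bases of each are shown because reads that lie within a unit can be assigned to one gene or the other only by the bases that differ. Both transcripts also hold sequence outside the units. Capitals mark positions at which the 4 units are not all alike, of which there are 13 in this stretch and 48 in the whole unit of 228 bases, 42 of them at the last base of a codon.
UBB unit 1: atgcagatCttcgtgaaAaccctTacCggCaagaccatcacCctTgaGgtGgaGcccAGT
UBB unit 2: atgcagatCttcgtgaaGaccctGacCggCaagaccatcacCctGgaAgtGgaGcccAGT
UBB unit 3: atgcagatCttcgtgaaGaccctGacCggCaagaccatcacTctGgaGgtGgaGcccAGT
RPS27A unit 1: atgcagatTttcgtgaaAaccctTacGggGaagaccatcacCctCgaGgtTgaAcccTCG
The UBB stretches lie at chr17:16381908-16381967, chr17:16382136-16382195 and chr17:16382364-16382423, and the RPS27A stretch runs across an intron between 55232825 and 55233374 of chromosome 2.

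The units of UBB were 94.7 to 96.5% identical to each other and 79.4 to 83.3% identical to that of RPS27A. The longest run of bases shared by RPS27A and a UBB unit was 26. GENCODE also lists 5 numbered pseudogenes of UBB and 17 of RPS27A. How reads that match several such copies were counted is not given in the sources used here, so the levels of both genes are uncertain to that extent. Each member is also overlapped by a gene on the minus strand, UBB by the antisense gene AC093484.3 over 518 bases and RPS27A by the first part of CLHC1 over 661 bases. The kit marks strand, but whether the counting used it is not stated, so reads from such pairs cannot be told apart with certainty.

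Library totals were 12805180 to 14307287 estimated counts in CBS KO and 16097680 to 16176745 in WT. CBS itself, the targeted gene, stood at 24.6, 18.5 and 25.4 CPM in the CBS KO libraries and at 48.8, 53.0 and 50.6 CPM in the WT libraries, and was 2.22-fold lower (adjusted p = 1.18e-08, edgeR), with the reservation that CBSL is a near-identical copy that can share its reads. CPM here means counts relative to library size after TMM scaling (trimmed mean of M values). Of 13028 genes tested by edgeR, 77.2% were called at an adjusted p under 0.05, with 49.7% of the calls higher in CBS KO. The higher share of the calls fell to 28.6% when libraries were scaled by their totals, to 28.4% on FPKM and to 18.5% on TPM. Across all genes tested, the median log2 fold change lay at -0.01 (TMM), -0.36 (library total), -0.32 (FPKM) and -0.54 (TPM). Of 10 markers of colon epithelium all were detected, LGALS4 only at 1.74 CPM in CBS KO and 0.749 CPM in WT. A list of 10 markers of blood, vessel and stromal cells, of which 8 were in the table, summed to 42.5 to 49.5 TPM in CBS KO libraries and 75.2 to 85.4 TPM in WT libraries. COL1A1, a collagen gene of that list, stood at 181 CPM in CBS KO and 197 CPM in WT. None of these 8 was at 0 in every library, and 4 stayed under 1 TPM throughout. Their part in the results was not tested.

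Both mRNAs were abundant in every library. By TPM, which corrects for length, RPS27A ranked 56th to 60th of 16781 genes in CBS KO and 66th to 69th in WT. UBB ranked 90th to 92nd in CBS KO and 75th to 76th in WT. RPS27A thus moved up the order and UBB moved down it, and the ranks of CBS KO and WT libraries did not overlap for either gene. Such separation was common. In TPM every CBS KO library lay above every WT library for 15.2% of the genes tested and below for 68.1%. The ranks of other genes were not compared.

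RPS27A had 1169, 1337 and 1528 CPM in CBS KO replicates 1, 2 and 3, against 624, 633 and 645 CPM in the WT replicates. Every CBS KO library lay above every WT library, as it did for 38.9% of the genes tested, while 40.1% had every CBS KO library below. The means were 1345 ± 179.5 CPM in CBS KO and 634 ± 10.9 CPM in WT (SD, n = 3 each), and the log2 fold change was 1.08 (SE 0.08), or 2.12-fold, with an adjusted p of 4.26e-09 by edgeR. Of all genes tested 38.4% were called higher in CBS KO and 38.9% lower.

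RPS27A kept its direction and its call under each scaling that was run. In TPM it stood at 3230.3, 3410.4 and 3534 in CBS KO and at 2359, 2394 and 2428 in WT, which is 1.42-fold higher. Limma on log2(TPM + 1) gave a log2 difference of 0.50 (SE 0.04, adjusted p = 1.26e-07), where 15.3% of genes were called higher, 82.9% were called in either direction and 15.2% had every CBS KO library above every WT library. Set against the median gene of each fit, RPS27A lay higher by 1.10 (TMM), 1.09 (library total), 1.06 (FPKM) and 1.04 (TPM) on the log2 scale.

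The direction of UBB depended on the scaling and the unit. It had 819.8, 880.0 and 1058 CPM in CBS KO replicates 1, 2 and 3, against 701, 678 and 692 CPM in the WT replicates. On this scale the CBS KO libraries were all higher and UBB rose 1.33-fold, with a log2 fold change of 0.41 and an SE of 0.08 (edgeR, adjusted p = 0.000199). In FPKM the groups overlapped, with 1196, 1234 and 1405 in CBS KO and 1248, 1216 and 1232 in WT. In TPM the order turned, with 1726, 1723 and 1890.1 in CBS KO and 2051, 1984 and 2018 in WT, so that every CBS KO library lay below every WT library, as did 68.1% of the genes tested.

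The test followed the scale. When libraries were scaled by their totals alone, the log2 fold change of UBB was 0.06 and was not called (adjusted p = 0.474, edgeR), in a fit that called 79.6% of genes, 22.8% higher and 56.8% lower. On log2(FPKM + 1) it was 0.05 (adjusted p = 0.478, limma), where 80.8% of genes were called, 22.9% higher and 57.9% lower. On log2(TPM + 1) it was -0.18 and was called lower (adjusted p = 0.00216, limma), where 67.6% of all genes were called lower. Against the median gene of each fit UBB lay higher by 0.42 (TMM), 0.42 (library total), 0.37 (FPKM) and 0.36 (TPM) on the log2 scale, at the 69.4th to 70.8th percentile of the genes tested in those 4 fits.

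**Figure D1:**
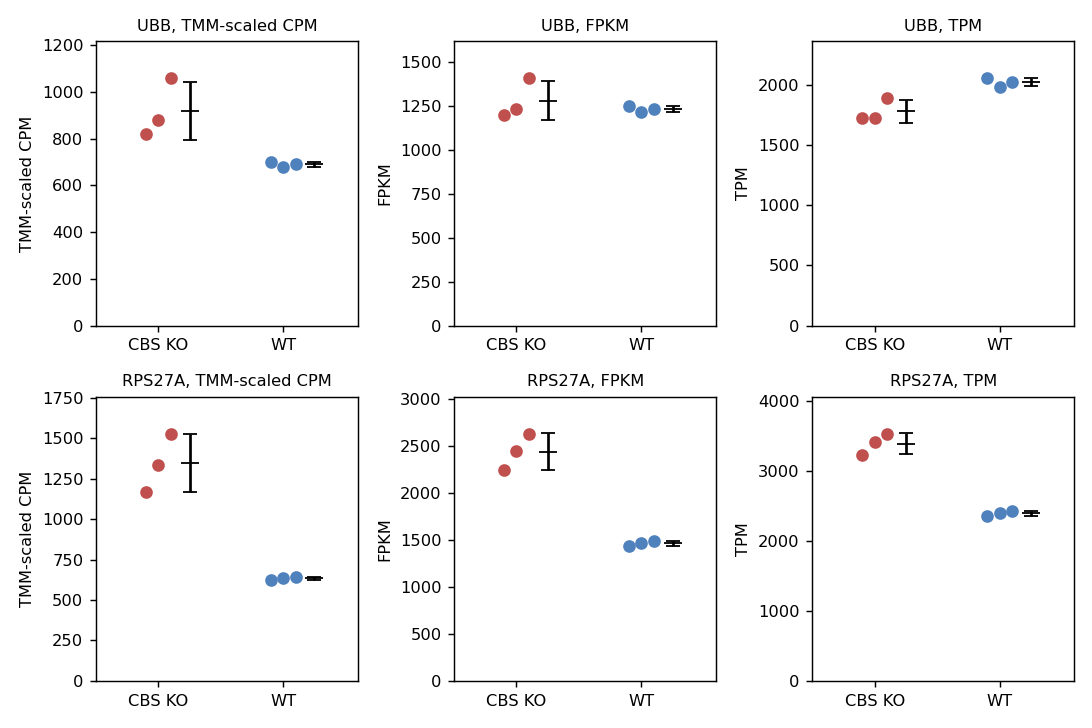
Levels of UBB (top row) and RPS27A (bottom row) in each library as TMM-scaled CPM, FPKM and TPM, with CBS KO in red, WT in blue, and the mean and SD beside the points (n = 3 each). RPS27A is higher in CBS KO in every panel, while UBB is higher, overlapping or lower depending on the unit.

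**Figure D2:**
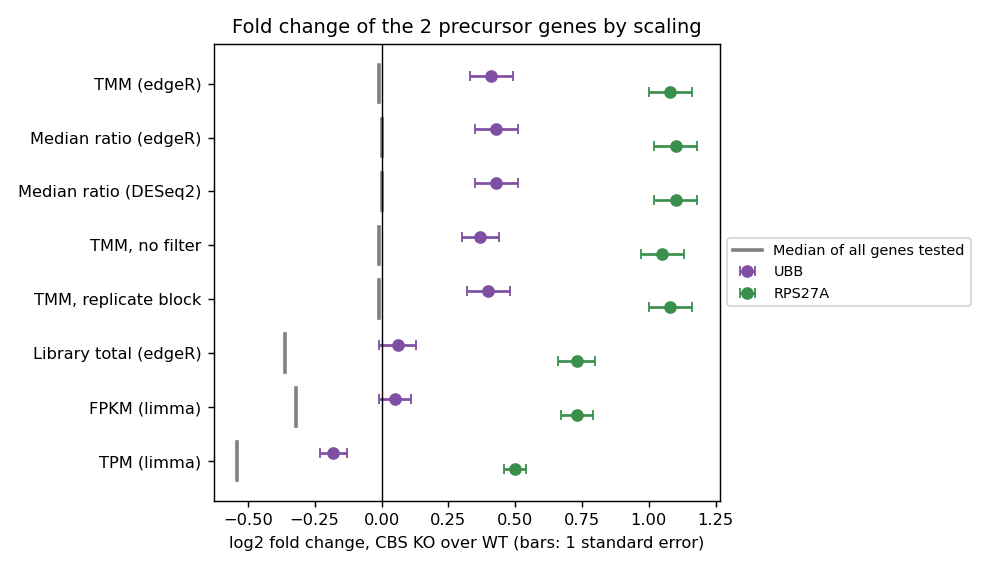
Log2 fold change of UBB (purple) and RPS27A (green), CBS KO over WT, under 8 choices of scaling and test, with 1 standard error as bars and the median of all genes tested as a grey mark. UBB runs from 0.43 down to -0.18 as the grey mark runs from 0.00 to -0.54, and RPS27A stays above 0 throughout.

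The spread was wider in the CBS KO group for both genes. On the TMM scale the coefficient of variation was 13.5% in CBS KO and 1.66% in WT for UBB, and 13.4% in CBS KO and 1.72% in WT for RPS27A. CBS KO replicate 3 was the highest library for both. It also had the lowest TMM factor, 0.86, against 0.905 and 0.889 in the other CBS KO libraries and 1.13 in each WT library. In TPM the coefficients were 5.37% in CBS KO and 1.64% in WT for UBB, and 4.51% in CBS KO and 1.44% in WT for RPS27A. Without CBS KO replicate 3 the log2 fold change was 0.29 for UBB (adjusted p = 1.05e-05, edgeR) and 0.97 for RPS27A (adjusted p = 3.48e-19, edgeR).

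A ratio of both genes within a library does not depend on how libraries are scaled. UBB stood at 0.534, 0.505 and 0.535 of the TPM of RPS27A in CBS KO replicates 1, 2 and 3, and at 0.869, 0.829 and 0.831 in the WT replicates. The groups were far apart relative to their spread. The log2 ratio was -0.93 ± 0.05 in CBS KO and -0.25 ± 0.04 in WT (SD, n = 3 each), a difference of -0.68, so UBB was 1.61-fold lower relative to RPS27A in CBS KO. The two-sided exact permutation p was 0.1, the smallest that 3 against 3 libraries allow.

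With 3 ubiquitin units in each UBB mRNA and 1 in each RPS27A mRNA, these transcripts together coded for 8409, 8579 and 9204 units on the TPM scale in CBS KO and for 8511, 8347 and 8482 in WT. The groups overlapped. The means were 8731 ± 419 in CBS KO and 8447 ± 87.2 in WT (SD, n = 3 each), and the difference of 284 had an exact permutation p of 0.4, two-sided. That difference was 47.8 without CBS KO replicate 3 and 445 without CBS KO replicate 1, and in FPKM it was 1114, with an exact permutation p of 0.1. The share of these units that came from UBB was 61.6, 60.2 and 61.6% in CBS KO and 72.3, 71.3 and 71.4% in WT. The sum covers these mRNAs only, and it measures coding capacity, not protein.

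**Figure D3:**
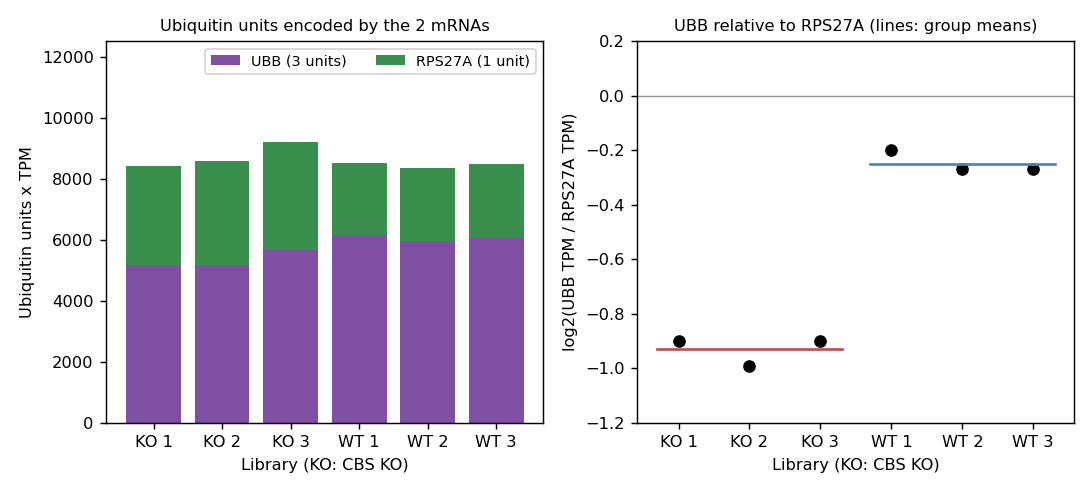
Left, ubiquitin units coded by UBB (3 per mRNA, purple) and RPS27A (1 per mRNA, green) times TPM in each library, CBS KO (KO) before WT. Right, the log2 ratio of UBB to RPS27A TPM in each library with group means as lines, which separates CBS KO (-0.99 to -0.90) from WT (-0.27 to -0.20).

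RPS27A was set beside the other ribosomal proteins because its product is also a subunit of the ribosome. All 78 cytosolic ribosomal protein genes in the list, RPS27A included, were called higher with TMM, where 38.4% of all genes were, and 73 with TPM, where 15.3% were, with none called lower in either fit. Among the other 77 the log2 fold change ranged from 0.55 to 1.27 with a median of 0.97, and 14 of them rose further than RPS27A. RPL26, RPS19 and RPL31 led the list at 2.42-fold, 2.38-fold and 2.25-fold. Relative to the median TPM of the other 77 genes in the same library, RPS27A stood at 0.85, 0.88 and 0.931 in CBS KO and at 0.817, 0.818 and 0.846 in WT. The log2 ratio was -0.17 ± 0.07 in CBS KO and -0.27 ± 0.03 in WT (SD, n = 3 each). Its difference of 0.10 was 0.07 without CBS KO replicate 3, and the exact permutation p of 0.1 is the smallest possible here. The groups nearly touched, at 0.85 in CBS KO replicate 1 and 0.846 in WT replicate 3. The exact permutation p was 0.2 without CBS KO replicate 3 and without each WT replicate in turn.

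Among 7853 genes averaging 20 CPM or more, those whose library-by-library pattern lay closest to RPS27A were CLTB, RPS12, RPS24, RPL13A and RPL11, at distances of 0.0538 to 0.0708 over the 6 libraries. The distance is Euclidean, in log2 CPM centred on each gene's own mean. CLTB codes for a clathrin light chain, and the others for ribosomal proteins. Of the 50 nearest genes 31 were cytosolic ribosomal protein genes, which besides RPS27A made up 77 of the 7853 compared. The nearest to UBB were SDR39U1, MZT2B, MRPL53, COX4I1 and EIF3G, at distances of 0.069 to 0.0828, and none of its 50 nearest was a cytosolic ribosomal protein gene. The distance includes the difference between the groups, and UBB lay below each of the 78 ribosomal protein genes in log2 fold change. With so few such genes among those compared, their absence near UBB adds little.

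The start site of RPS27A is shown because mRNAs of ribosomal proteins typically begin with a tract of pyrimidines, the TOP motif, through which mTOR signalling controls their translation. In the RefSeq window at chr2:55232628-55232717 (GRCh38.p14, plus strand), 50 bases before and 40 from the start site at 55232678 read as follows, with the longest run of C and T that came within 5 bases of the start in capitals.
RPS27A start: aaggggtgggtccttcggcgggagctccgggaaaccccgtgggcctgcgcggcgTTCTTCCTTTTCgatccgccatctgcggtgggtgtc
UBB start: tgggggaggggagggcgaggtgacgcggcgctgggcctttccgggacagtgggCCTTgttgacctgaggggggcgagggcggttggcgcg
At this start the RPS27A run is 12 bases long, begins 4 bases after that start and spans another RefSeq start at 55232688, from which it begins at -6. An mRNA from the start at 55232688 would open within the run, with the bases CTTTTC. One from the start at 55232678 would open 4 bases before the run. A run at least as long was found in 3.51% of 34796 promoter windows. Run lengths count bases on both sides of a start, so they do not measure the TOP motif itself. In the UBB window at chr17:16381291-16381380, around the start at 16381341, the run is 4 bases long, a length reached in 52.4% of windows. The other starts had shorter runs. At the RPS27A start at 55231903, which is also where GENCODE begins the gene, the run is 3 bases long, a length reached in 71.7% of windows, and at the UBB start at 16381290 it is 1 base, reached in 99.6%. GENCODE begins the UBB gene at 16380798, which neither UBB window reaches, so the run at that start was not examined. Which start these cells used was not measured.

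UBB was also set beside heat shock genes, since polyubiquitin genes are known targets of the heat shock response. Of 25 heat shock factors and chaperone genes 18 rose and 4 fell with TMM (median log2 fold change 0.79), where 38.4% of all genes rose and 38.9% fell. With TPM 13 rose and 8 fell (median 0.19), where 15.3% of all genes rose and 67.6% fell. The list's shares were 72.0% higher and 16.0% lower with TMM, and 52.0% higher and 32.0% lower with TPM. HSPA1A, an inducible chaperone of the HSP70 family, had 6502, 7042 and 7905 CPM in CBS KO and 289, 274 and 311 CPM in WT, a 24.5-fold rise, although its reads cannot be told with certainty from those of its near-identical copy HSPA1B. HSPA6, another inducible HSP70, rose 116-fold from a low level, with 21 counts in all in WT. CRYAB, a small heat shock protein, rose by a fitted 64.3-fold, with 187 counts in all in CBS KO and 4 in WT. HSPE1, the mitochondrial cochaperonin, fell 1.62-fold, STIP1, which links HSP70 to HSP90, 1.34-fold, and AHSA1, an activator of HSP90, 1.30-fold. UBB, at a log2 fold change of 0.41, lay below 17 and above 8 of these 25 genes.

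Windows of 250 bases before to 50 after 2 UBB start sites (16381290 and 16381341) and 3 RPS27A start sites were searched on both strands for the heat shock element, as 3 blocks that alternate between GAA and its inverse TTC with NN between them. None of the 5 held it, and it was found in 0.491% of all windows. The shorter form, GAANNTTC or TTCNNGAA, was in none of the 5 and in 13.5% of all windows. The letters CCAAT were present in both UBB windows, in 1 of the 3 RPS27A windows, and in 34.6% of all windows. The UBB windows overlap for most of their length, as do those of the RPS27A starts at 55232678 and 55232688. The 5 windows are therefore not separate stretches, and 1 site can be counted in both windows of a pair. The windows do not reach the UBB-201 start.

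**Figure D4:**
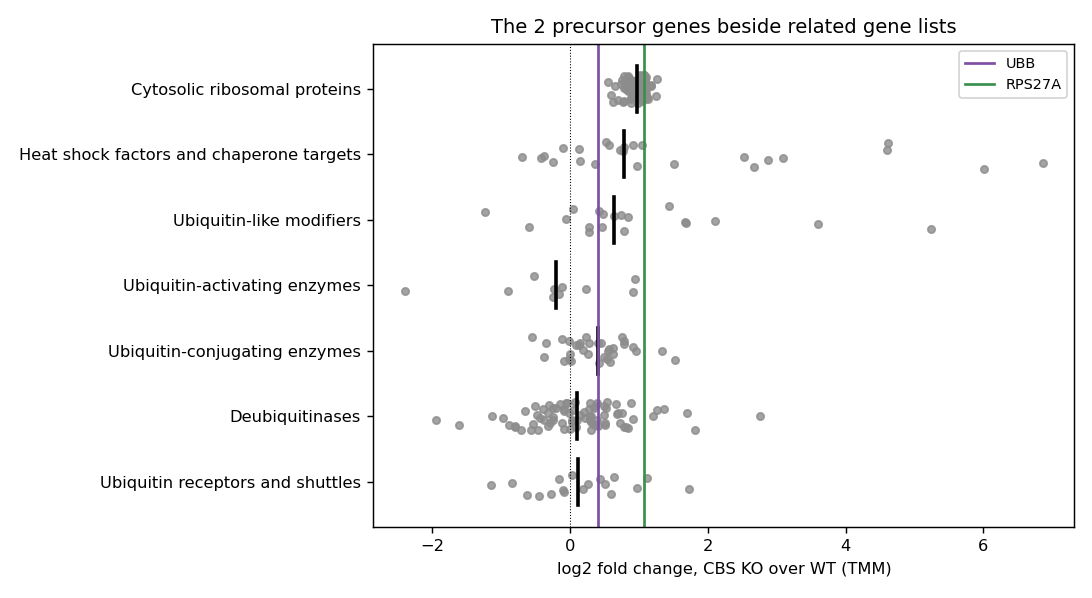
Log2 fold change with TMM, CBS KO over WT, of the tested genes in 7 lists (grey points, black bar at the list median), with UBB (purple, 0.41) and RPS27A (green, 1.08) as vertical lines. RPS27A is drawn only as a line and lies within the ribosomal protein genes, and UBB lies below all of them.

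Of 10 deubiquitinases that process precursors or recycle ubiquitin 4 were higher and 4 lower under TMM, which is near the shares over all genes (38.4% higher, 38.9% lower). Under TPM none was higher and 9 were lower, where 67.6% of all genes were lower. USP5, which takes apart free ubiquitin chains, had 69.4, 71.2 and 71.5 CPM in CBS KO and 210.3, 217 and 219 CPM in WT. It fell 3.05-fold (log2 fold change -1.61, SE 0.06, adjusted p = 2.91e-13, edgeR), and by 2.16 on the log2 scale with TPM. Its paralog USP13 fell 1.37-fold and USP7, a nuclear deubiquitinase that stabilises MDM2, 1.31-fold. OTULIN, specific for linear chains, rose 1.33-fold, UCHL1 1.26-fold and the proteasome-bound UCHL5 1.23-fold with TMM, and all 3 had a negative log2 fold change with TPM. OTULIN's was -0.16 and not called.

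In the wider list of 79 tested deubiquitinases 38 rose and 25 fell with TMM, which is 48.1% and 31.6% beside 38.4% and 38.9% of all genes. With TPM 9 rose and 51 of 78 fell, and the 65.4% lower is near the 67.6% of all genes. YOD1, which acts with the segregase VCP, rose 6.78-fold, to 303 ± 26.0 CPM in CBS KO against 44.6 ± 2.18 CPM in WT. OTUD3 and OTUD1 rose 3.51-fold and 3.25-fold. USP11 fell 3.86-fold, USP5 as above, and OTUB2 2.18-fold. These 6 kept their direction with TPM.

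Of 10 enzymes that activate ubiquitin and its relatives 5 fell and 3 rose with TMM, where 38.9% of all genes fell and 38.4% rose. With TPM all 9 that were tested fell, where 67.6% of all genes did. UBA1, the main ubiquitin-activating enzyme, fell 1.44-fold, to 145 ± 7.58 CPM in CBS KO against 207 ± 5.13 CPM in WT. MOCS3, which activates URM1, fell 5.25-fold and ATG7, of the autophagy conjugation system, 1.86-fold. UBA6, the other ubiquitin-activating enzyme, rose 1.92-fold with TMM but its log2 fold change was -0.32 with TPM. UBA2, of the SUMO pathway, likewise rose 1.18-fold with TMM and had -0.34 with TPM. UBA7, which activates ISG15, rose 1.88-fold from 67 counts in all in WT, a call that was lost with the library total (adjusted p = 0.0788, edgeR).

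Of 33 ubiquitin-conjugating enzymes 22 rose and 3 fell with TMM, which is 66.7% and 9.09% beside 38.4% and 38.9% of all genes. With TPM 6 rose and 18 fell, and the 18.2% higher is near the 15.3% of all genes, while 54.5% were lower beside 67.6%. UBE2S, which extends chains for the anaphase-promoting complex, rose 2.87-fold, UBE2E2 2.53-fold and UBE2H 1.94-fold, and these also had positive values with TPM. UBE2Z fell 1.46-fold, UBE2O 1.30-fold and UBE2J2, of the endoplasmic reticulum, 1.28-fold.

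Among ubiquitin receptors and shuttles 9 of 18 rose and 5 fell with TMM, where 38.4% of all genes rose and 38.9% fell. With TPM 3 rose and 12 fell, and these shares of 16.7% and 66.7% are near the 15.3% and 67.6% of all genes. The autophagy receptors OPTN and TAX1BP1 rose 3.32-fold and 1.98-fold, and UBQLN1, which carries ubiquitinated proteins to the proteasome, 2.18-fold. VCP, which extracts ubiquitinated proteins from complexes, fell 2.2-fold, to 183 ± 8.14 CPM in CBS KO against 403 ± 14.5 CPM in WT, its cofactor FAF2 1.79-fold and UBQLN4 1.54-fold.

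Ubiquitin-like modifiers rose in 14 of 19 cases and fell in 2 with TMM, which is 73.7% and 10.5% beside 38.4% and 38.9% of all genes. With TPM 9 rose and 8 fell, which is 47.4% and 42.1% beside 15.3% and 67.6%. ISG15, made of 2 ubiquitin-like folds and induced by interferon, rose 37.7-fold, SUMO4 12.2-fold from 10 counts in all in WT, and GABARAPL1, of the autophagosome membrane, 4.33-fold. UBL4A, of the pathway that inserts tail-anchored proteins, fell 2.35-fold and URM1 1.51-fold.

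UBB is among the genes used as references in quantitative PCR, so both genes were set against 13 other such genes within each library. UBB was higher in CBS KO relative to 8 of them and lower relative to 5, with differences in log2 ratio from -1.70 against B2M to 1.41 against POLR2A. Among the 13 the groups overlapped for UBB only against ACTB, where the difference was 0.04. The share of all genes with no overlap in such ratios was not computed. Against GAPDH the log2 ratio was -3.28 in CBS KO and -2.82 in WT, a difference of -0.47 with no overlap. Against TBP it was 7.99 in CBS KO and 7.53 in WT, a difference of 0.45 with no overlap. RPS27A was higher relative to 12 of the 13, by up to 2.1 against POLR2A, and lower only relative to B2M, by -1.02. It overlapped between groups against TFRC and YWHAZ. The reference genes themselves were divided. B2M rose 5.48-fold, TFRC 2.1-fold and YWHAZ 1.86-fold, and POLR2A fell 2.01-fold and IPO8 1.52-fold (edgeR with TMM). With TMM 7 of the 13 were called higher and 2 lower, where 38.4% and 38.9% of all genes were. With TPM 5 were higher and 8 lower, and the 61.5% lower is near the 67.6% of all genes.

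**Figure D5:**
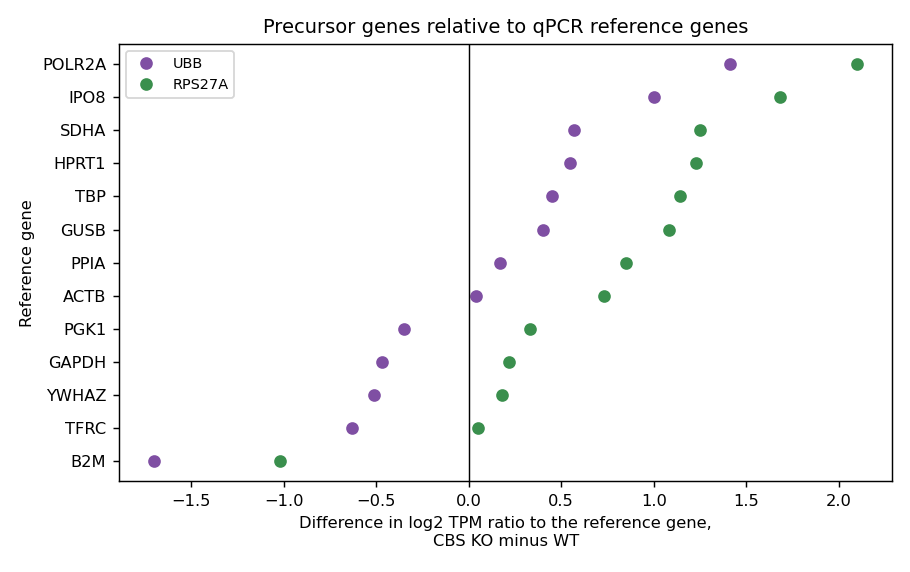
Difference between CBS KO and WT in the log2 TPM ratio of UBB (purple) and RPS27A (green) to each of 13 reference genes, from mean log2 ratios over 3 libraries each. UBB falls on both sides of 0, from -1.70 to 1.41, and RPS27A lies above 0 except against B2M.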

How the data were processed

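Per the submitters' processing notes, the build was GRCh38 and the tools included edgeR, DESeq2, StringTie 2.1.6, HISAT2 2.2.1 and cutadapt 1.9, with no role stated for any of them. The authors deposited estimated counts per gene (7.12 to 7.43% not whole), FPKM and TPM, per the file headers. The rule by which reads were counted is not given in the sources used here.

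Estimated counts were rounded. Genes passing filterByExpr (13028 of 16781) were scaled by TMM and tested with edgeR 4.0.16 (quasi-likelihood, robust, R 4.3.3), with Benjamini-Hochberg adjustment over all genes and calls under 0.05. Limma 3.58.1 was fitted to log2(FPKM + 1) and log2(TPM + 1) for genes at 1 or more in at least 3 libraries. DESeq2 1.42.0, other scalings, a replicate block and leaving out each library were alternatives. Ratios within a library were compared by exact permutation. On simulated counts for 12912 genes edgeR recovered 67% of 1.5-fold and 86% of 2-fold changes, with 5 false calls. The simulation changed few genes, as many up as down, with the same dispersion for every gene. It did not imitate data in which 77.2% of genes are called and TMM factors differ by group, so it cannot speak to errors there. The recovery required of the simulation was restricted to genes of at least 20 CPM after these shares were seen, and the fit was left as it was. The 6 authors' mean columns were not used.

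Named genes were the members, CBS, up to 3 called genes per list and direction with the largest change, and the 5 nearest patterns. Members and lists were chosen with earlier results of these data known, and the list of reference genes was added after the files were seen. The comparison of units, the share of units from UBB, the promoter motifs and the overlapping genes were also chosen then, and COL1A1, HSPA1B, LGALS4, and ACTB, GAPDH and TBP among the reference genes were named after their values were seen. Sequences come from GENCODE 29 and RefSeq (GRCh38.p14); the promoter table held both members. Counts of a few reads carry counting error only. Other ubiquitin precursor genes are not reported here.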

Additional observations from a re-analysis of the deposited data

How the results depend on the processing

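RPS27A kept its direction and call under every alternative run, with log2 fold changes of 0.50 (TPM) to 1.17 and of 0.97 to 1.17 when 1 library was left out. UBB kept them with median-ratio factors, DESeq2, no filter and each library left out (0.29 to 0.48), lost its call with the library total (0.06) and FPKM (0.05), and turned to -0.18 with TPM. The log2 ratio of UBB to RPS27A stayed at -0.70 to -0.66. The replicate numbers gave no clear pairing of the libraries. Same-number correlations were 0.0174 to 0.0405, and the others -0.0466 to 0.0235. CBS KO replicates 1 and 3 correlated best with the WT replicate of their own number, and CBS KO replicate 2 with WT replicate 3. The replicate block gave 0.40 for UBB and 1.08 for RPS27A, and 10044 called genes against 10060. The difference in coded units was 284 with TPM and 1114 with FPKM, and 47.8 to 445 with 1 library left out. Other named genes turned sign under some of these alternatives, of which FPKM and TPM also change the length correction, pseudocount, filter and test, and the cause was not tested. With the library total these were UBA2 (-0.11), UCHL1 (-0.02) and UCHL5 (-0.06). With FPKM they were UBA6 (-0.09), UBA2 (-0.11), UCHL1 (-0.02) and UCHL5 (-0.26). With TPM they were UBA6 (-0.32), UBA2 (-0.34), OTULIN (-0.16), UCHL1 (-0.25), UCHL5 (-0.49), SDR39U1 (-0.18), MZT2B (-0.16), MRPL53 (-0.13), COX4I1 (-0.20) and EIF3G (-0.19). Among list counts 36 of 234 moved by over 1.5 times.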
